A study of Mus musculus with 4 samples.

Results

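Cycling preneutrophils are neutrophil precursors of the marrow that still divide while they already make the proteins of their specific granules. They were chosen by measured values among the barcodes of the injured growth plate region, at the end of the femur: at least 100 UMIs of Ngp, Camp, Chil3 and Fcnb together per 10000 UMIs, at least 2 UMIs of Mki67 and Top2a together, under 20 UMIs per 10000 of the primary granule genes Mpo, Elane, Prtn3 and Ctsg, and 0 UMIs of Ebf1, a B-lineage factor. A UMI is a tag that counts 1 captured RNA molecule once. The rule found 1255 cells, 593 in the 1NMPP1 library and 662 in the vehicle library, of 21014 growth plate barcodes kept (11634 and 9380) and of 26153 kept in all 4 libraries of the series.

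Mice of every group carried the same altered receptor kinase of sensory neurons, a change that makes it open to block by the small molecule 1NMPP1. The 1NMPP1 group was injected at 17 ug/g body weight 48 h and 2 h ahead of an operation that injured the distal femoral growth plate, and then drank water with 40 uM of the compound. The vehicle group was given DMSO vehicle. Tissue was taken on day 7, and lumbar dorsal root ganglia (DRG) of both groups were sequenced too. Sex, age, background strain and the number of animals in a library are not given in the labels used here. Each group is 1 library, so every comparison below sets 1 library against another, carries no p-value, and its intervals cover counting error only.

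Neutrophils arise through a fixed order of granule programmes. Promyelocytes make the primary granule proteases and myeloperoxidase, dividing preneutrophils switch to specific granule proteins such as lactoferrin (Ltf), neutrophil gelatinase-associated lipocalin (Lcn2) and cathelicidin (Camp) under the factor C/EBPε (Cebpe), and later cells stop dividing, make gelatinase granules, and acquire Cxcr2, the chemokine receptor that draws them out of the marrow. Ngp is neutrophilic granule protein, Chil3 a chitinase-like protein, and Fcnb ficolin B, a lectin of innate immunity. Mki67 codes for a coat protein of mitotic chromosomes and Top2a for the topoisomerase that untangles them.

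The 1NMPP1 library had 139703885 UMIs in 11807 barcodes and the vehicle library 102692919 UMIs in 9560. Members were deep, with a median of 20996 UMIs and 3866 genes per cell in the 1NMPP1 library and 19033.5 UMIs and 3639 genes in the vehicle library, and 12724002 and 12661821 UMIs in all. The 2 growth plate libraries shared 40 barcodes, none of them a member in both. Cells of both sexes were found in each library: 20.4% of 1NMPP1 members and 51.4% of vehicle members were called male from Y-linked genes, and 356 of 593 and 128 of 662 were called female. Sex, animal and treatment cannot be told apart in the pooled values. The vehicle table has 1 added sequence, AAV_PHP_S, with 95 UMIs in 9 barcodes and 0 UMIs in members.

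The label was checked against the cells. In members the granule genes made up a median of 961 UMIs per 10000 in the 1NMPP1 library and 941 in the vehicle library, far above the limit of 100, and medians of 24 and 21 UMIs were of Mki67 and Top2a. Every 1NMPP1 member and 99.5% of vehicle members had a Chil3 UMI, while Fcnb was seen in 87.0% and 83.5%. In cells with at least 1 Ebf1 UMI, Fcnb was seen in 14.5% and 9.25% at medians of 8089 and 6399 UMIs. Some of those cells, 201 and 93, met every other limit of the rule, so Fcnb need not be absent there. The genes of the rule chose the members, so their levels are a description. The next values stand outside the rule. Ltf, scaled as the gene's UMIs per 1000000 UMIs summed over a class of cells (CPM), reached 8289 CPM in 1NMPP1 members and 8122 CPM in vehicle members, and Cebpe 532 and 512 CPM.

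**Figure D1:**
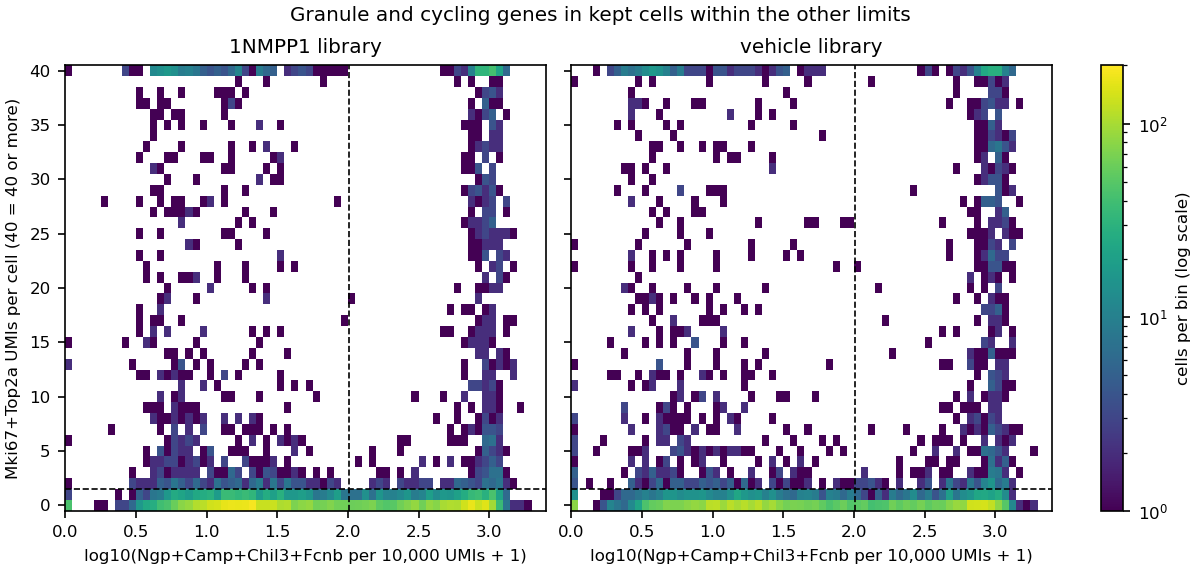
Kept cells within the limits on primary granule genes and Ebf1, 1NMPP1 library at left and vehicle library at right. The x axis is log10 of the summed Ngp, Camp, Chil3 and Fcnb UMIs per 10000 plus 1, the y axis is the count of Mki67 and Top2a UMIs, the colour is the number of cells in a bin on a log scale, and dashed lines mark the limits. Members fill the upper right field, where they form a narrow column near their medians of 961 and 941 per 10000, while cells with 0 or 1 cycling UMI run across the granule limit below them.

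Few members sat near the granule limit and more near the others. Only 13 and 21 members had granule values of 100 to under 200 per 10000, and 24 and 21 cells otherwise within the rule lay at 50 to under 100. Those just inside had 3109 and 3868 CPM of Ltf, those just outside 723 and 1078 CPM. At the limit on cycling genes, 66 and 92 members had exactly 2 UMIs, and 404 and 244 cells were left out with 1 UMI. Members with exactly 2 UMIs had 5.40 and 4.31 CPM of the cyclin gene Ccnb1. The cells with 1 UMI had 2.81 and 2.28 CPM, and all members 69.7 and 68.2 CPM. In Ccnb1, members at this limit were thus closer to the cells left out than to members as a whole. At the limit on primary granule genes, 27 and 37 members lay at 10 to under 20 per 10000, and 32 and 29 cells outside it at 20 to under 40.

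Both promoters below belong to granule genes of the rule, and are shown because TTNNGNAA, a core that C/EBP factors can bind, recurs in them. Capitals mark each match on either strand. The sequences are RefSeq's, from 250 bases before to 50 after the annotated start on GRCm38.p6: Ngp lies at chr9:110419558-110419857 on the plus strand, and Fcnb at chr2:28084829-28085128 on the minus strand.
Ngp: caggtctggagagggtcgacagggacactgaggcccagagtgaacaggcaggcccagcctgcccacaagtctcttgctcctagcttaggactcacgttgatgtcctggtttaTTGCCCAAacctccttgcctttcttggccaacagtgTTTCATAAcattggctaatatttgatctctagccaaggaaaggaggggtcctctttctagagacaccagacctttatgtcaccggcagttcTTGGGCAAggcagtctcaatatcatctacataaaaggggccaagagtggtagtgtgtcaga
Fcnb: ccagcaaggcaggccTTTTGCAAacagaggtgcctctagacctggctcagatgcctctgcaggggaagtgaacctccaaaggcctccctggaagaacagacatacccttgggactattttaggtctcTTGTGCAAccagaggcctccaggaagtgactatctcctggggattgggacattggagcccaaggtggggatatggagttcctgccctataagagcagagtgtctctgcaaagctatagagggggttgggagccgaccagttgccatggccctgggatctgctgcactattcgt
Ngp held 3 matches and Fcnb 2. Of 17 secondary granule genes with a promoter in the table, 14 (82.4%) held at least 1 match, against 40.8% of all 27025 promoters. Shares were also high for inflammatory (76.5%), gelatinase granule (6 of 8) and interferon response genes (66.7%), and under 40.8% in most other lists. Camp held 0. A match is a description of the letters in this window, not a site that was bound.

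By the rule, cycling preneutrophils lay between the cycling cells above the primary granule limit and the granule-stage cells with 0 cycling UMIs, called resting below. There were 485 and 485 cycling cells above that limit and 1896 and 1646 resting cells in the 1NMPP1 and vehicle libraries. Prtn3, proteinase 3, stood at 99.9 CPM in 1NMPP1 members and 115 CPM in vehicle members, against 5852 and 6431 CPM in cycling cells above the limit. Of the other primary granule genes of the rule, Elane, neutrophil elastase, had 74.7 and 67.1 CPM in members, Mpo, myeloperoxidase, 18.6 and 18.4 CPM, and Ctsg, cathepsin G, 10.2 and 14.9 CPM. Ms4a3, a membrane protein of granulocyte and monocyte progenitors that the rule did not use, had 149 and 162 CPM in members, 843 and 941 CPM above the limit, and 14.2 and 18.8 CPM in resting cells. Npm1, nucleophosmin of the nucleolus, had 131 and 134 CPM in members against 1374 and 1517 CPM above the limit. The rule itself caps the primary granule genes, so their contrast with cells above the limit was fixed by the choice of cells. Against resting cells, 6 of 11 primary granule genes were at least 1.5-fold higher in members in both libraries and 1 lower, beside 31.8% and 14.8% of all genes, with list medians of 0.74 in the 1NMPP1 library and 1.17 in the vehicle library on the log2 scale.

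Some genes were highest in the members among these classes. Cebpe had 532 and 512 CPM in 1NMPP1 and vehicle members, 214 and 224 CPM in cycling cells above the primary granule limit, and 301 and 273 CPM in resting cells. Chil3 and Fcnb of the rule were highest there too. Chil3 stood at 8762 and 7229 CPM in members, 1182 and 951 CPM above the limit, and 3118 and 3011 CPM in resting cells. Fcnb had 739 and 675 CPM in members, 554 and 436 CPM above the limit, and 82.1 and 101 CPM in resting cells. Orm1, an acute-phase glycoprotein of specific granules, stood at 187 and 152 CPM in members and at 75.9 and 75.7 CPM in resting cells. Cdkn2c, a CDK inhibitor of the INK4 family, had 48.3 and 40.8 CPM in members, 22.0 and 17.9 CPM above the limit, and 2.75 and 0.93 CPM in resting cells. Cdkn2d, its relative, had 178 and 178 CPM in members, 62.5 and 66.8 CPM above the limit, and 116 and 118 CPM in resting cells. For each of these genes the order of the classes was the same in the 1NMPP1 and the vehicle library.

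The later programme was low in members. Retnlg, a resistin-like secreted protein of mature neutrophils, stood at 1331 and 1694 CPM in 1NMPP1 and vehicle members and at 13004 and 12131 CPM in resting cells. Mmp8, neutrophil collagenase, had 210 and 295 CPM in members and 2746 and 2578 CPM in resting cells, and Mmp9, gelatinase B, 332 and 393 CPM against 2627 and 2464 CPM. Cxcr2 had 70.5 and 89.7 CPM in members and 387 and 374 CPM in resting cells. Ly6g, the surface marker of granulocytes, was at 291 and 290 CPM in members, 15.8 and 12.2 CPM in cycling cells above the limit, and 780 and 814 CPM in resting cells. Ltf, by contrast, was already near its resting level: 8289 and 8122 CPM in members against 11137 and 11395 CPM.

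**Figure D2:**
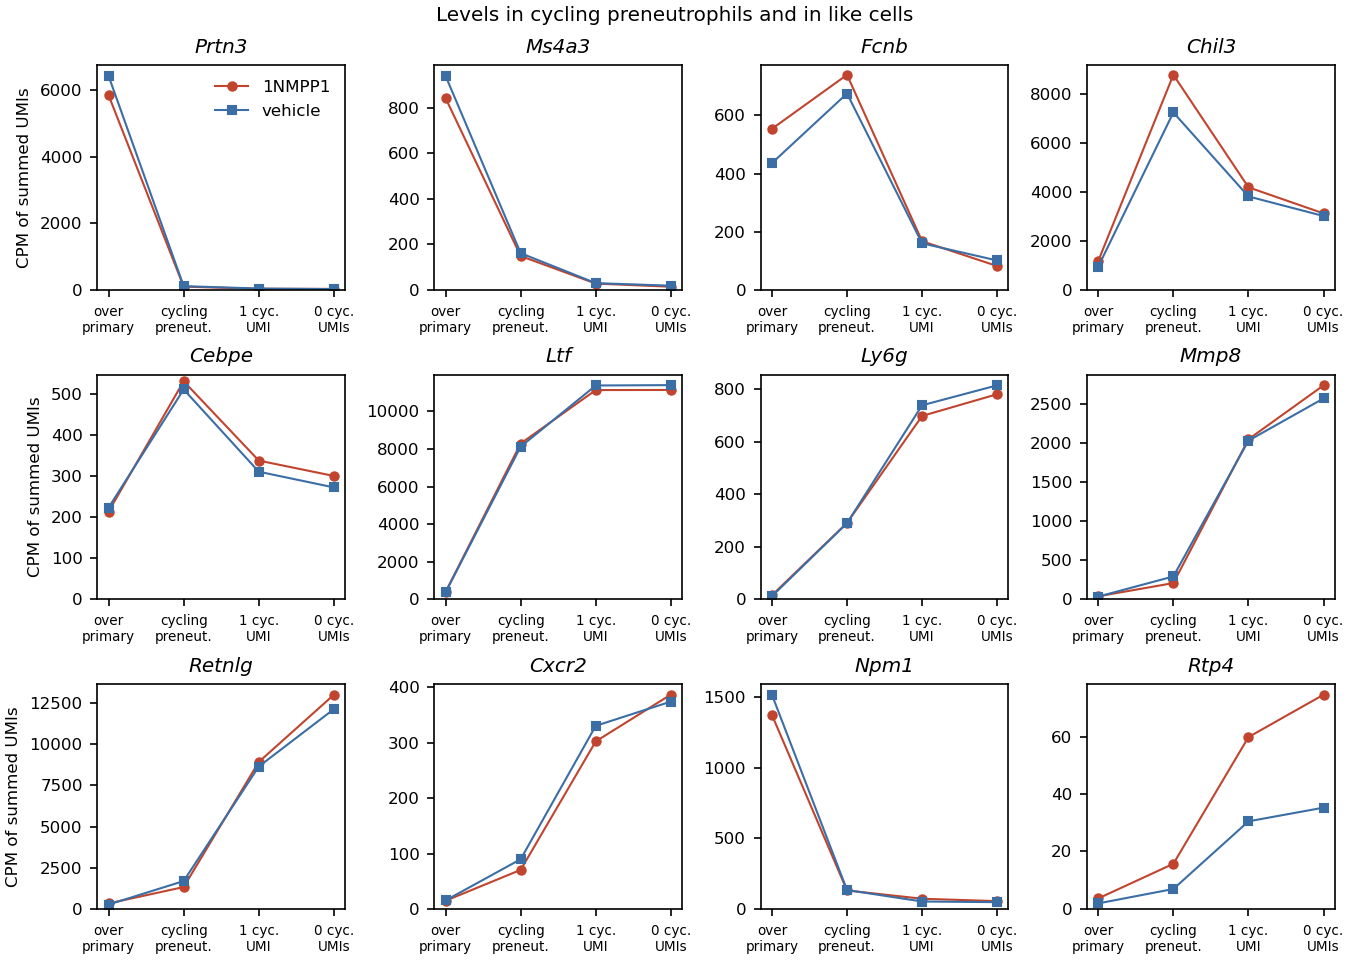
CPM of summed UMIs for 12 genes in cycling cells above the primary granule limit, in cycling preneutrophils, and in granule-stage cells with 1 and with 0 cycling UMIs, with a linear axis of its own for each gene. Circles are the 1NMPP1 library and squares the vehicle library, with 1 library a point and no error bar. Both libraries follow the same course: Fcnb, Chil3 and Cebpe peak in cycling preneutrophils, Ltf is close to its resting level there, and Mmp8, Retnlg and Cxcr2 are still low.

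Across 9857 genes with at least 100 UMIs in members and resting cells, 3139 (31.8%) were at least 1.5-fold higher in members in both libraries and 1461 (14.8%) at least 1.5-fold lower. The cells were split by Mki67 and Top2a, so these counts are read only as a description. DNA replication genes were higher for 49 of 50 measured and mitosis genes for 59 of 60. Ribosome biogenesis was higher for 16 of 20, with nucleolin (Ncl) at 160 and 148 CPM in members and 73.8 and 66.4 CPM in resting cells. Of 9 gelatinase granule genes 9 were lower, as were 23 of 26 mature neutrophil genes and 27 of 34 interferon response genes. Among 20 secondary granule genes, 4 were higher and 3 lower, so this group did not move as a block. The 10 genes with the highest ratios, Mki67, Top2a, Hist1h2ao, Hist1h2af, Prr11, Hist1h2ap, Hist1h3i, Hist1h2bf, Hist1h1d and Ticrr, were all cell cycle or histone genes.

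The promoters of both cycling genes of the rule are shown for the cell cycle homology region (CHR, TTTGAA) and CCAAT boxes, letters that cell cycle genes of late G2 and mitosis often carry. Capitals mark matches to either on both strands, and no 2 of the capital runs overlap. Mki67 lies at chr7:135716330-135716629 and Top2a at chr11:99024140-99024439, both on the minus strand of GRCm38.p6 in RefSeq.
Mki67: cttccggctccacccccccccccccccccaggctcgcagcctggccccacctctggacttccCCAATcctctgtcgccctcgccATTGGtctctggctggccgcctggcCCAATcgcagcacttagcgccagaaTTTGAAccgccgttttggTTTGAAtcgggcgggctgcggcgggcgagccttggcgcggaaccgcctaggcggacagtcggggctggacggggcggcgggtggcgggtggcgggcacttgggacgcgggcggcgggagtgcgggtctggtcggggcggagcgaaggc
Top2a: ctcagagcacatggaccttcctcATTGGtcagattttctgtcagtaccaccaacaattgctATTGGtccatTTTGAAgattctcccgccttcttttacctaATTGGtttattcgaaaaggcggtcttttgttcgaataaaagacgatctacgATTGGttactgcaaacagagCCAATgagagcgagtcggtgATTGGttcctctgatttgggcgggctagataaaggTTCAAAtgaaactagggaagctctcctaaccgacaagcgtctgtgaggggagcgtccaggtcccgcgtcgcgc
The Mki67 promoter held 2 CHR and 3 CCAAT matches, and that of Top2a held 2 and 6. Of 51 mitosis genes with a promoter, 37 (72.5%) held TTTGAA, against 18.2% of all promoters. CCAAT was in 37 of the 51 (72.5%), against 37.9%. It was not particular to cell cycle genes, with 81.8% for endoplasmic reticulum folding and 90.9% for cholesterol synthesis genes, though most other lists had lower shares.

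Members spread over the cell cycle in the same way in both libraries. Each member was placed by the share of mitosis UMIs among its mitosis and DNA replication UMIs. Levels along the bins come from members thinned to 3000 UMIs, which left out 18 and 36 shallower cells. Bins cut at 66.7% and 85.3% held 33.9%, 32.5% and 33.6% of 1NMPP1 members, and 32.8%, 34.0% and 33.2% of vehicle members. Pcna, the sliding clamp of replication, was at 388, 96.3 and 32.8 CPM from the low to the high bin in 1NMPP1 members and at 417, 126 and 35.3 CPM in vehicle members. Ccnb1, cyclin B1, ran the other way, at 10.3, 44.6 and 133 CPM and at 9.71, 55.0 and 130 CPM. Both genes are in the lists that made the bins.

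Genes outside those lists differed along the bins too. Fcnb stood at 879, 638 and 477 CPM from the low to the high bin in 1NMPP1 members, and at 736, 618 and 423 CPM in vehicle members. Mmp8 had 472, 326 and 218 CPM and 497, 412 and 247 CPM in the same order. Npm1 also decreased along the bins in both libraries. Cebpe increased, at 412, 483 and 570 CPM in 1NMPP1 members and 374, 475 and 530 CPM in vehicle members. Ltf showed no such course, at 9070, 8745 and 8972 CPM and at 8838, 8288 and 9008 CPM.

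**Figure D3:**
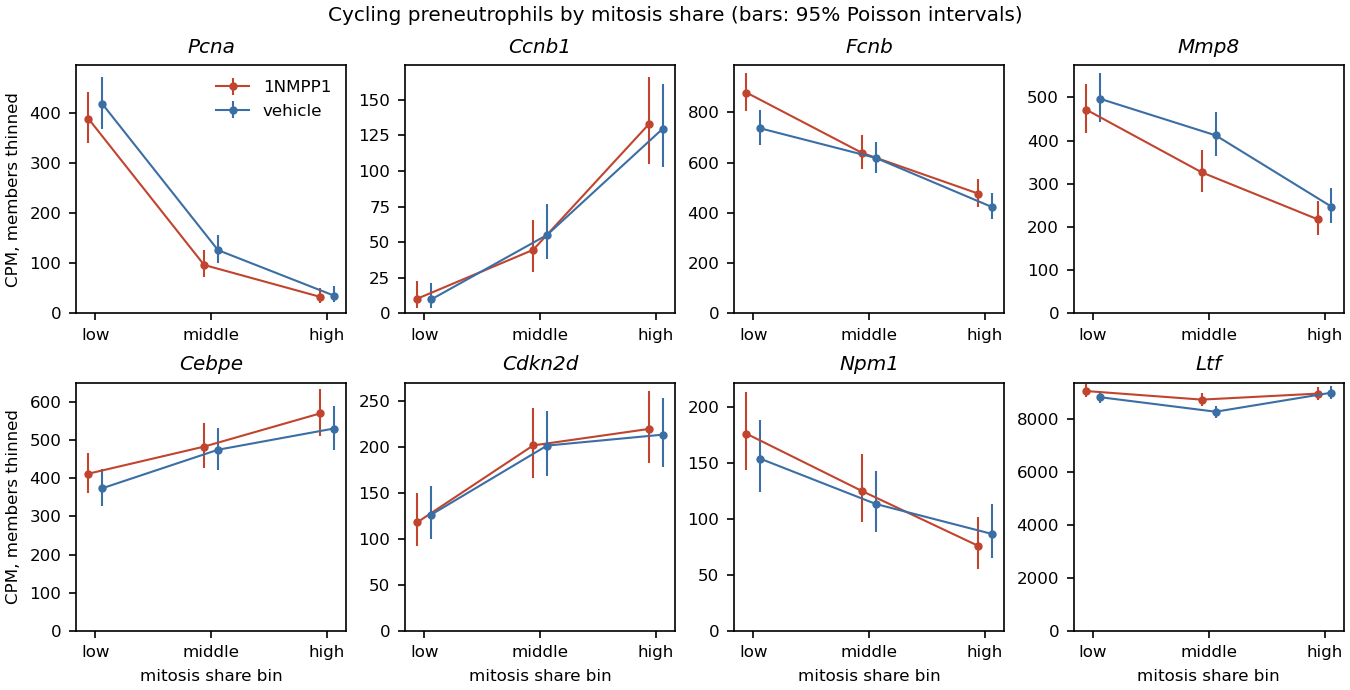
CPM in cycling preneutrophils thinned to 3000 UMIs, in 3 bins of the mitosis share of mitosis and DNA replication UMIs, for 8 genes with a linear axis of its own each. Points are 1 library each, 1NMPP1 in red and vehicle in blue, and bars are 95% Poisson intervals that cover counting error only. Pcna and Ccnb1 show the direction of the bins. Fcnb, Mmp8 and Npm1 decrease and Cebpe and Cdkn2d increase from the low to the high bin in both libraries, while Ltf stays level.

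A second spread ran along granule content. When members were binned by Ltf and Lcn2 at 183 and 230 UMIs per 10000, the low, middle and high bins held 33.6%, 33.9% and 32.5% of 1NMPP1 members and 33.1%, 32.8% and 34.1% of vehicle members. Prtn3 stood at 144, 59.2 and 41.7 CPM from low to high in 1NMPP1 members and at 149, 98.7 and 49.2 CPM in vehicle members. Ly6g went the opposite way, with 244, 320 and 426 CPM and 230, 314 and 425 CPM. Cybb, the membrane subunit of the phagocyte NADPH oxidase, had 1579, 1807 and 2096 CPM and 1622, 1751 and 2133 CPM. Fcnb showed no such order, at 680, 596 and 725 CPM and at 646, 591 and 540 CPM. Both libraries filled the bins of either axis in like shares.

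Cycling preneutrophils were a smaller share of the 1NMPP1 library. They were 593 of 11634 kept cells, or 5.10% (exact 95% interval 4.70% to 5.51%), against 662 of 9380, or 7.06% (6.55% to 7.59%), in the vehicle library, a log2 ratio of -0.47 (-0.63 to -0.31). Of all granule-stage cells they were 20.5% (19.0% to 22.0%) in the 1NMPP1 library and 25.9% (24.2% to 27.7%) in the vehicle library, a log2 ratio of -0.34 (-0.50 to -0.18). Cycling cells above the primary granule limit were 4.17% and 5.17% of kept cells. Cycling B-lineage cells were 10.4% and 8.35%. With every barcode thinned to 3000 UMIs ahead of the rule, 4.86% and 6.12% of kept cells were members, a log2 ratio of -0.33.

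The size of that difference depended on the limits and on the sex called from RNA. A UMI of Ebf1 alone kept out 201 cells of the 1NMPP1 library and 93 of the vehicle library. Of these, 138 and 51 had 1 or 2 Ebf1 UMIs, and they carried 7781 and 8207 CPM of Ltf and 9.24 and 7.56 CPM of the B-cell gene Cd79a, where members had 5.66 and 3.71 CPM of Cd79a. The other 63 and 42, with 3 or more, had 409 and 470 CPM of Cd79a. Resting cells also held 1 or 2 Ebf1 UMIs more often in the 1NMPP1 library, 11.7% against 5.41% of those otherwise within the limits. With up to 2 Ebf1 UMIs allowed, members were 6.28% and 7.60% of kept cells, a log2 ratio of -0.27 (-0.43 to -0.12). With no limit on Ebf1 the shares were 6.82% and 8.05%, a log2 ratio of -0.24. The part of free Ebf1 RNA in these shares was not tested.

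Counting cells with 1 UMI of Mki67 or Top2a as cycling took the log2 ratio to -0.17 among kept cells and to -0.04 among granule-stage cells. Within male-called cells members were 4.28% of 1NMPP1 cells and 7.24% of vehicle cells, a log2 ratio of -0.76 (-1.07 to -0.46). Within female-called cells they were 7.80% and 8.74%, a log2 ratio of -0.16 (-0.46 to 0.14), an interval that includes 0. A call needed a UMI of Xist or of a Y-linked gene but not of both, and the remaining cells had no call. Members were 35.2% and 40.9% of female-called granule-stage cells and 19.2% and 27.2% of male-called ones, against 20.5% and 25.9% of all. The part of depth and free RNA in the calls was not tested. Every one of these alternatives kept the share lower in the 1NMPP1 library, and a lower share can come from fewer members or from more of other cells. With 1 library in each group, treatment and animal cannot be told apart.

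Within the members, most genes differed by less than 1.5-fold between the 1NMPP1 and vehicle libraries. Of 8636 genes with at least 100 UMIs over both, 133 (1.54%) were at least 1.5-fold higher in 1NMPP1 members and 141 (1.63%) at least 1.5-fold lower, and the median log2 ratio was -0.01. Secondary granule genes had a median of 0.03 with 0 of 20 past 1.5-fold in either direction. Camp stood at 52352 CPM in 1NMPP1 members and 51472 CPM in vehicle members, Ltf at 8289 and 8122 CPM, and Lcn2 at 11663 and 12020 CPM. Chil3 differed more, at 8762 and 7229 CPM (log2 ratio 0.28), as did Olfm4, olfactomedin 4 of a subset of neutrophils, at 107 and 82.1 CPM (0.39). S100a8 and S100a9, the calprotectin subunits and the genes with the most UMIs, were at 136279 and 135403 CPM and at 133049 and 139677 CPM. Lyz2, lysozyme, Tmsb4x, an actin-binding peptide, and Actb, beta-actin, were the other genes among the 10 highest, Lyz2 at 8023 and 8684 CPM. NADPH oxidase genes had a median of -0.03 and 0 of 6 past 1.5-fold.

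Over all members, cell cycle genes differed little between the libraries. DNA replication genes had a median log2 ratio of -0.01, with 0 of 50 past 1.5-fold, and mitosis genes a median of 0.04, with 0 of 60. Ube2c, the ubiquitin-conjugating enzyme of mitotic exit, stood at 489 CPM in 1NMPP1 members and 490 CPM in vehicle members. Rrm2, the small subunit of ribonucleotide reductase, had 206 and 207 CPM. Genes of entry to and exit from the cycle had a median of -0.01 with 0 of 20 past 1.5-fold. Cdkn1b, the CDK inhibitor p27, was at 71.0 and 59.1 CPM. Within the bins of Ltf and Lcn2 the lists moved apart: 42 of 50 DNA replication genes were lower in 1NMPP1 members of the low bin (median -0.20) and 42 of 50 higher in the high bin (0.17), with genes of at least 40 UMIs counted. In the middle bin 55 of 60 mitosis genes were higher (0.17). The medians of all genes in the low, middle and high bins were -0.06, 0.03 and 0.01, and differences between bins were not tested. The sex mix also differed between these bins. From low to high, 59.4%, 58.1% and 37.2% of vehicle members were called male, against 21.6%, 19.9% and 19.7% of 1NMPP1 members. The part of sex in these bin values was not tested. Mki67 and Top2a chose the cells and had 616 and 576 CPM in 1NMPP1 members, against 621 and 571 CPM in vehicle members.

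Interferon response genes had the highest median of the 20 functional lists, which leave out the markers of other cell types. Of 36 listed, 29 were measured, 27 were higher in 1NMPP1 members and 9 were at least 1.5-fold higher, against 1.54% of all genes, with a list median of 0.47. Rtp4, a transporter protein induced by interferon, had 15.7 CPM in 1NMPP1 members and 6.95 CPM in vehicle members (log2 ratio 1.17, 95% interval 0.81 to 1.56). Rsad2, the antiviral enzyme viperin, had 13.8 and 6.63 CPM (1.06, 0.68 to 1.45). Slfn5 and Slfn8 of the Schlafen family had 9.98 and 4.74 CPM (1.07) and 8.80 and 4.03 CPM (1.12). Ifi27l2a, an interferon-induced protein, had 142 and 83.6 CPM (0.76, 0.65 to 0.87), and Irf9, a subunit of the factor ISGF3, 33.4 and 20.5 CPM (0.71). Oasl2, Parp14 and Ifi47 were the other 3 past 1.5-fold. Slfn4 and Slfn1 were the 2 lower members, Slfn4 at 124 and 146 CPM.

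Interferon genes were higher in the 1NMPP1 library in other cells too. The list median was 0.61 in resting cells, 0.66 in granule-stage cells with 1 cycling UMI, 0.41 in cycling cells above the primary granule limit and 0.63 in cycling B-lineage cells. Among male-called members alone the median was 0.26, and among female-called ones 0.51. Rsad2 was seen in 12.3% of 1NMPP1 members and 6.04% of vehicle members. It was seen in 9.96% and 4.31% of cells with Ebf1 UMIs, which are shallower and include cells that met the other limits of the rule. In resting cells it stood at 59.6 and 36.4 CPM, so members held little of it beside resting cells of the same library. The part of free RNA in the members' values was not tested. Differences of these medians between classes were not tested.

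The promoter of Rsad2 is shown for a core of the interferon-stimulated response element (ISRE), which ISGF3 binds: GAAA, any 2 bases, GAAA. Capitals mark the match on either strand in the RefSeq window chr12:26456403-26456702, on the minus strand of GRCm38.p6.
Rsad2: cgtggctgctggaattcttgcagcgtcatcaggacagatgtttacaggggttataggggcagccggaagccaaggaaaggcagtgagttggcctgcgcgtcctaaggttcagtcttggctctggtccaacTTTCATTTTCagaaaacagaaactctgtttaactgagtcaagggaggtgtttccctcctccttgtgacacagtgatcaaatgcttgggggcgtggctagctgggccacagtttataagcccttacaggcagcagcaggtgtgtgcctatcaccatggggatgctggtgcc
The window held 1 match. Of 27 interferon response genes with a promoter in the table, 16 (59.3%) held it, against 3.45% of all promoters.

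Cholesterol synthesis genes had the lowest median of the 20 functional lists, -0.35. Of 18 listed, 15 were measured, 14 were lower in 1NMPP1 members and 2 were at least 1.5-fold lower, against 1.63% of all genes. Sqle, squalene epoxidase, had 2.75 CPM in 1NMPP1 members and 5.77 CPM in vehicle members (log2 ratio -1.06, 95% interval -1.69 to -0.47), and Mvd, mevalonate diphosphate decarboxylase, 52 and 81 UMIs (-0.64). Better counted members of the list differed by less: Fdps, farnesyl diphosphate synthase, had 28.1 and 37.6 CPM (-0.42), and Insig1, a sterol sensor partner, 11.7 and 16.9 CPM (-0.53). Srebf2, the factor that drives these genes, stood at 48.4 and 54.6 CPM (-0.17). Sc5d was the 1 gene not lower, at 14.9 and 14.8 CPM. Fdps and Idi1 share sequence with other annotated genes and are uncertain.

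The cholesterol list median was below 0 in each other class: -0.36 in resting cells, -0.43 with 1 cycling UMI, -0.38 above the primary granule limit and -0.25 in cycling B-lineage cells. In male-called members it was -0.29 and in female-called members -0.33. Hmgcs1, a synthase early in the pathway, is shown with the sterol regulatory element letters TCACNCCAC in capitals, in the RefSeq window chr13:119690101-119690400 on the plus strand of GRCm38.p6.
Hmgcs1: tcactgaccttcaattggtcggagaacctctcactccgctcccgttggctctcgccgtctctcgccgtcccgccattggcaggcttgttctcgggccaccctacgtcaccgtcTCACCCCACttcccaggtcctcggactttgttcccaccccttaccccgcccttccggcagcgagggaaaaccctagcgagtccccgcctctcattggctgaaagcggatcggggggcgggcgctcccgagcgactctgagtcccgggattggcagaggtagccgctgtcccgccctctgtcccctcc
On both strands it held 1 match, and it was the 1 promoter of 11 of the list with any (9.09%), against 1.25% of all promoters. Hmgcs1 had 17.8 CPM in 1NMPP1 members and 23.2 CPM in vehicle members (log2 ratio -0.38).

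**Figure D4:**
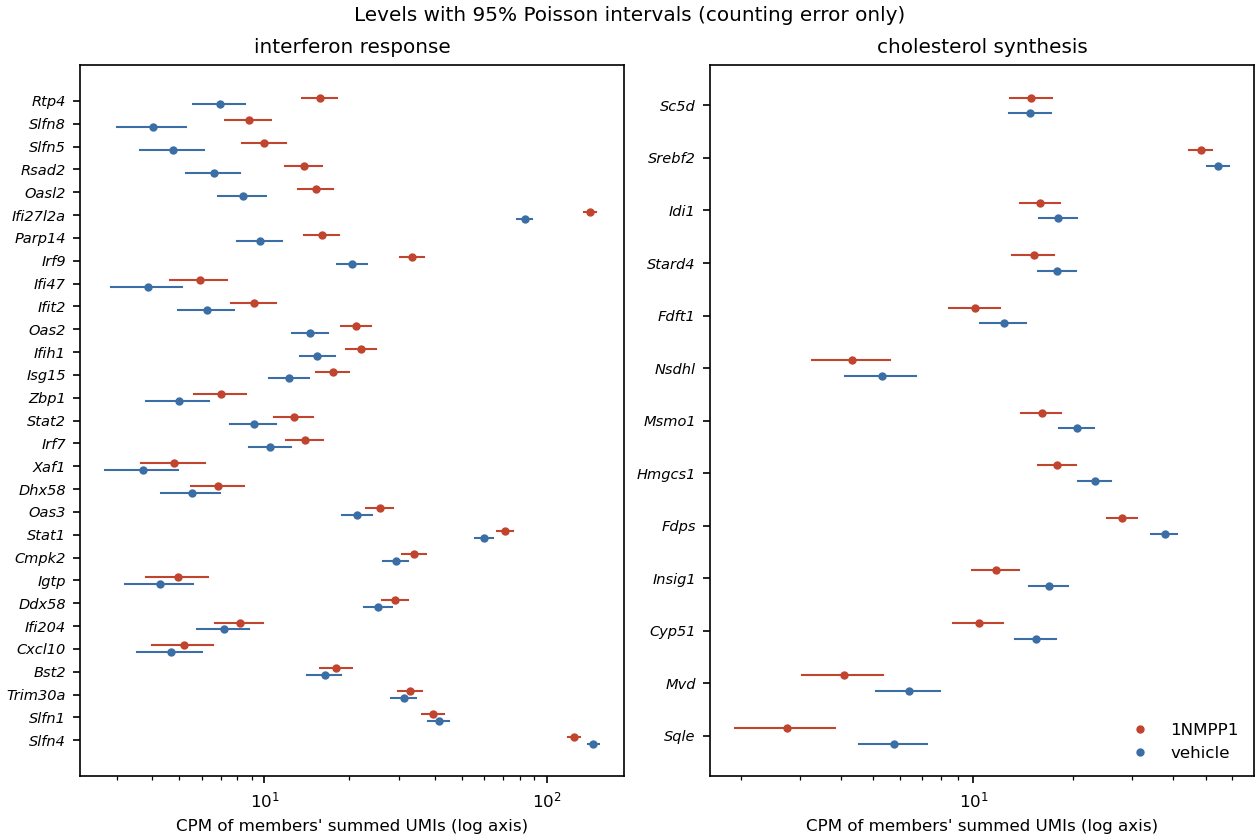
CPM of the members' summed UMIs for the measured interferon response genes at left and 13 cholesterol synthesis genes at right, on a log axis. Red points above are the 1NMPP1 library and blue points below the vehicle library, with 95% Poisson intervals for counting error. Interferon genes lie to the right in 1NMPP1 members down to Slfn1 and Slfn4, while the cholesterol genes drawn, but for Sc5d, lie to the left.

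Genes of later neutrophil stages were slightly lower in 1NMPP1 members. Of 26 mature neutrophil genes measured, 24 were lower and 2 at least 1.5-fold lower, against 1.63% of all genes, with a median of -0.13, and gelatinase granule genes had a median of -0.20 with 0 of 9 past 1.5-fold. Mmp8 stood at 210 CPM in 1NMPP1 members and 295 CPM in vehicle members (log2 ratio -0.49, 95% interval -0.56 to -0.42), Retnlg at 1331 and 1694 CPM (-0.35), and G0s2, an inhibitor of fat breakdown, at 279 and 393 CPM (-0.49). Stfa1, stefin A1, was at 66.9 and 134 CPM, and Ifitm1, an interferon-induced membrane protein, at 21.1 and 32.5 CPM (-0.62). In resting cells the mature neutrophil median was -0.016, with 12 genes higher and 14 lower, and the gelatinase median 0.09, beside a median of 0.08 over all genes there. Differences between the classes were not tested. The gelatinase median turned to 0.22 when cells with 1 cycling UMI were counted as members. The mature neutrophil median turned to 0.0056 with the highest doublet scores removed, to 0.038 with 1 cycling UMI and to 0.031 in female-called cells. In female-called members the median of all genes was 0.11.

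Smaller differences stood in the other lists. Primary granule genes had a median of -0.12, with 1 of 11 past 1.5-fold: Ctsc, the protease that activates granule serine proteases, at 24.1 CPM in 1NMPP1 members and 41.2 CPM in vehicle members (log2 ratio -0.77). Klf4, a monocyte-associated factor, had 17.2 and 27.8 CPM (-0.69), the 1 factor of 25 past 1.5-fold, and in resting cells it had 14.5 and 8.20 CPM. Among 19 inflammatory genes Il6 alone was past it, at 1.57 and 6.32 CPM (-1.98, -2.79 to -1.29). Tnf stood at 40.1 and 33.0 CPM. Medians of ribosome biogenesis, oxidative phosphorylation, glycolysis and hypoxia, nuclear envelope, receptors and adhesion, immediate early and heat shock, and endoplasmic reticulum folding genes lay between -0.09 and 0.02.

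**Figure D5:**
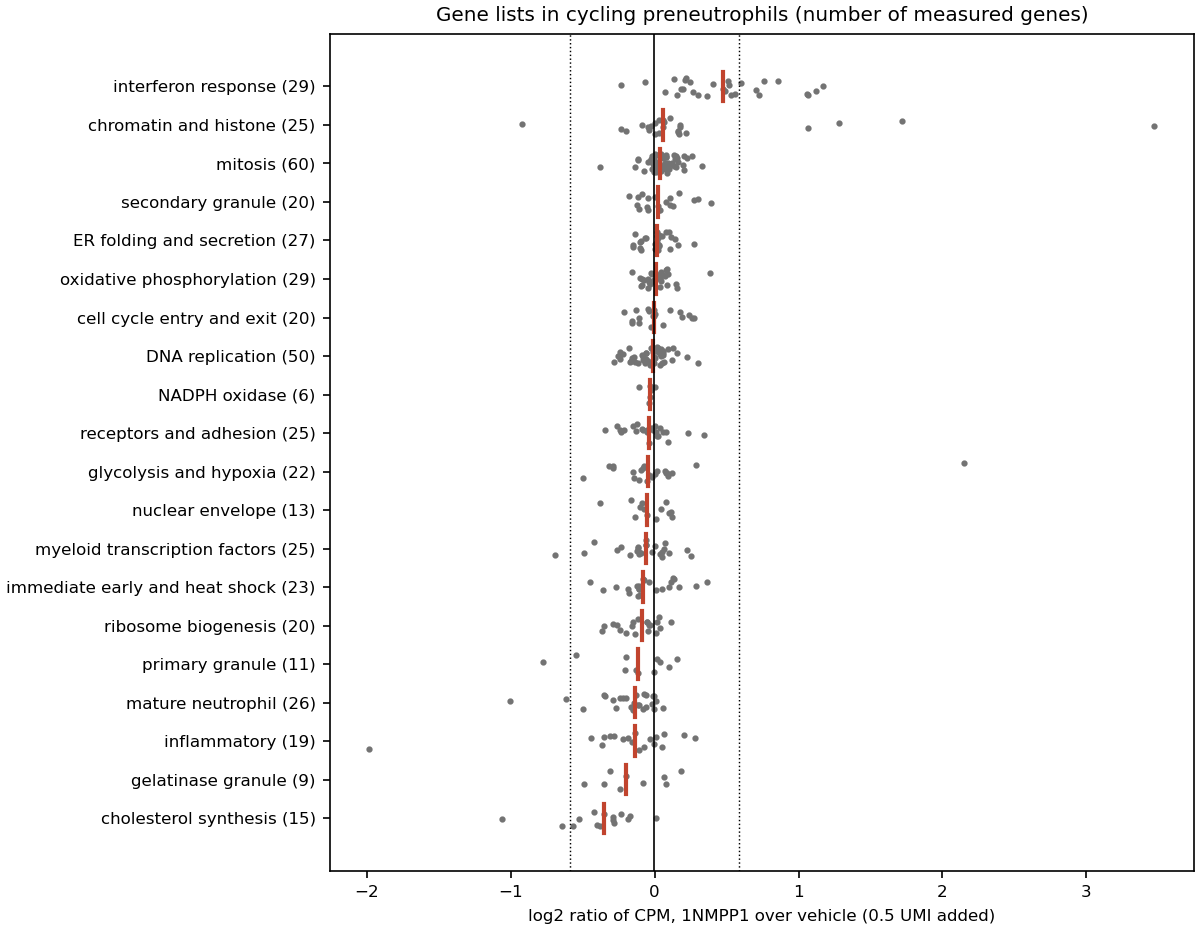
Log2 ratio of 1NMPP1 over vehicle CPM in cycling preneutrophils for each measured gene of 20 lists, with the number of measured genes in brackets. Grey dots are genes, red bars list medians, the solid line is the median of all 8636 genes and dotted lines mark 1.5-fold. Interferon response genes sit highest, with a median of 0.47, and cholesterol synthesis genes lowest, at -0.35, while cell cycle and secondary granule lists sit at the line.

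The largest single differences were of another kind. Hist1h2ap, a histone H2A gene, had 996 CPM in 1NMPP1 members and 89.7 CPM in vehicle members (log2 ratio 3.47), and Eno1, the glycolytic enolase, 143 and 32.1 CPM (2.15). Eno1b, which shares 83.8% of its 60-base stretches with other genes, Eno1 first among them, went the other way, at 8.72 and 18.7 CPM (-1.10). Of 25 chromatin and histone genes measured, 4 were at least 1.5-fold higher (Hist1h2ap, Hmga1, Hmgn2 and Hist1h2ae) and 1 lower (Hmgn1), against 1.54% and 1.63% of all genes, though the list median was 0.06. Hmgn2, a nucleosome-binding protein, had 1501 and 618 CPM (1.28). Hist1h2ao, Hist2h2aa1, Hist1h4h, Hmga1 and Oas1a were also among the 10 highest, and Wdr89 and Ftl1-ps1 among the 10 lowest. Hist1h2ap and Hist1h2ao share 92.9% of their stretches, most with each other, and Oas1a, Hmga1 and Ftl1-ps1 share over 50% with other genes, so counts may be split between copies. Of other genes named here, Hist2h2aa1, Hist1h3i, Hist1h2af and Hist1h2bf also share over 50% with other genes. Eno1, Hist1h4h, Hist1h2ae, Hmgn2, Ccnb1, Pcna, Npm1 and Chil3 share over 20%.

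For several of these genes, like ratios appeared in other growth plate cells. In cycling B-lineage cells Hist1h2ap had 1051 and 99.3 CPM, and the log2 ratio was 2.26 for Eno1, 1.74 for Hmga1 and -1.19 for Wdr89. The DRG libraries differed from this: over all kept cells Hist1h2ap stood at 208 and 267 CPM and Eno1 at 140 and 158 CPM, log2 ratios of -0.36 and -0.17. For Eno1, the 5 growth plate classes lay between 120 and 210 CPM in the 1NMPP1 library and between 25.0 and 45.7 CPM in the vehicle library. Il31ra, a cytokine receptor subunit, had 15.7 CPM in 1NMPP1 members and 4.58 CPM in vehicle members (1.77), and 27.1 and 7.81 CPM in resting cells. Pde1c, a phosphodiesterase, had 7.39 and 19.7 CPM (-1.41). Sntg1, Nkain2, Ddah1, Lrp1b, Stfa1 and Slc25a13 complete the 10 lowest. What sets these genes apart between the libraries was not tested.

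RNA of other cell types was present at low levels and unevenly. Stromal markers summed to 336 CPM in 1NMPP1 members and 65.1 CPM in vehicle members, and 1477 of the 1564 Col1a1 UMIs in 1NMPP1 members were in 1 barcode, as were 574 of 799 Sparc UMIs. Most UMIs of Col1a1 and Sparc, both among the 10 highest ratios, thus came from 1 cell each. Macrophage markers summed to 36.3 and 90.0 CPM, with 102 of 117 C1qc UMIs of vehicle members in 1 barcode, and basophil, eosinophil and mast cell markers to 11.2 and 53.6 CPM. Erythroid markers summed to 351 and 589 CPM and B-lineage markers to 101 and 76.7 CPM, with Ebf1 at 0 by the rule. Monocyte and dendritic markers summed to 243 and 305 CPM, stem and progenitor markers to 54.5 and 44.1 CPM, T and NK cell markers to 16.2 and 14.9 CPM, and megakaryocyte markers to 5.11 and 10.3 CPM. Beside Ebf1, Fcer1a and Treml1 were at 0 in 1NMPP1 members, and Cd5l, Procr and Postn in vehicle members. In all, 25 and 39 members held over 20 UMIs per 10000 of at least 1 of the 9 marker lists. Without them 118 genes were at least 1.5-fold higher and 86 lower, and the interferon and cholesterol medians were 0.47 and -0.31. Otherwise the part of these cells in the differences was not tested.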

How the data were processed

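UMI counts of 4 single-cell libraries were used as the authors deposited them, raw and by gene and barcode. The file headers name Cell Ranger 7.2.0 and the submitters' processing notes mm10. Each group is 1 library, so no test across samples was possible. Barcodes under 200 genes or over 20% mitochondrial UMIs were dropped. The members and the 29 gene lists were chosen with earlier results of these data known. Counts were summed per class and library and scaled to CPM. Log2 ratios are 1NMPP1 over vehicle with 0.5 UMIs added to each count. Genes with at least 100 UMIs over both libraries were measured. Shares carry exact Clopper-Pearson 95% intervals, levels exact Poisson intervals, and ratios exact conditional binomial intervals. Doublets stayed in, and removing the highest Scrublet scores was an alternative.

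Named genes were those of the rule, the 10 with the highest CPM, the 10 highest over resting cells, the 10 highest and 10 lowest ratios among genes seen in at least 10% of members of the library where they are higher, list members past 1.5-fold, and each list's members of highest CPM. Sex-linked, predicted, mitochondrial and ribosomal genes and those of hemoglobin and immunoglobulins were not eligible. Other list members were named after their values were seen. Some list members are not reported here by name, though list counts and medians include them. Sequence shared with other genes was counted in 60-base stretches of GENCODE transcripts. Calculations used Python 3.11.15, numpy 2.4.6, scipy 1.17.1, pandas 2.3.3 and scanpy 1.11.5, and were tested on simulated data. Alternatives changed each limit, the scaling, the depth, the doublets and the sex called from RNA.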

Additional observations from a re-analysis of the deposited data

Results flagged for a closer look

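Within male-called members the DNA replication list had a median log2 ratio of -0.16, and within female-called members one of 0.26. The immediate early and heat shock list had medians of -0.14 and 0.24 in the same order. Both were picked out because the sexes lay on opposite sides of the median of all measured genes in the same cells, by a set margin. Lying on opposite sides of 0 alone did not pick out a list. Neither difference was tested. All measured genes had a median of -0.04 in the male-called and of 0.11 in the female-called cells.

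The log2 ratio of the share of cells within the rule was -0.47 in the growth plate and 0.46 in the DRG. The difference between the tissues was not tested, and the DRG interval, -0.25 to 1.16, includes 0. The DRG ratio rests on 37 cells in the 1NMPP1 library and 36 in the vehicle library, of 2201 and 2938 kept, or 1.68% and 1.23%. Among granule-stage cells of the DRG they were 14.6% and 19.9%, a log2 ratio of -0.44 (-1.15 to 0.26), an interval that also includes 0.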

How the results depend on the processing

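The interferon response median stayed above 0 and the cholesterol synthesis median below 0 under all 21 settings, at 0.22 to 0.62 and -0.40 to -0.17. The share of cycling preneutrophils was lower in the 1NMPP1 library under all 15 settings, but its log2 ratio moved from -0.47 to -0.17 with 1 UMI of Mki67 or Top2a, to -0.76 in male-called and -0.16 in female-called cells, and, in alternatives chosen after seeing the data, to -0.27 with up to 2 Ebf1 UMIs and -0.24 with no Ebf1 limit. Of granule-stage cells it moved from -0.34 to -0.043 with 1 UMI and to -0.50 in male-called cells. The 133 genes higher and 141 lower became 48 and 30 with the rule applied to thinned cells, 50 and 39 with members thinned (fewer genes reach the minimum), 622 and 583 with at least 20 UMIs, 26 and 29 with at least 500 UMIs, and 47 and 43 at 2-fold. In female-called cells 337 were higher and 64 lower of 6622 measured, where the median log2 ratio of all genes was 0.11. With each member weighed alike 209 were higher, and without members rich in other cell types' markers, also chosen after seeing the data, 86 were lower. The gelatinase median turned to 0.22 with 1 UMI of Mki67 or Top2a. The inflammatory median turned to 0.0055 with the highest Scrublet scores removed and to 0.40 in female-called cells. The mature neutrophil median turned to 0.0056, 0.038 and 0.031 with Scrublet, with 1 UMI and in female-called cells. The last value still lay below the 0.11 of all genes in those cells. The primary granule median turned to 0.0064 with primary granule genes under 40 per 10000. The causes were not tested. The other list medians gave 378 values, of which 354 were counted as unmoved. The limit for this was the median half-width of the counting-error intervals of a list's single genes. That limit is not an interval of the list median. Removing the highest Scrublet scores took out 100 of 593 and 123 of 662 members, against 1083 of 11634 and 704 of 9380 kept cells. Members were thus removed at a higher rate than kept cells in both libraries. No paired analysis was possible because each group has 1 library, which also leaves no replicate to leave out.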
